A study of Homo sapiens with 6 samples.

Results

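The mRNA of 10 enzymes that make, elongate, desaturate or activate fatty acids was followed in MDA-MB-231 cells treated with the peptide PDBAG1: ACLY, ACSS2, ACACA, FASN, ELOVL5, ELOVL6, SCD, FADS1, FADS2 and ACSL3. The members were the rows of the deposited tables whose gene symbol is one of these names, 10 of the 17631 genes listed, and all 10 were among the 12582 genes tested. MDA-MB-231 is a long-established cell line from a human triple-negative breast cancer. PDBAG1 is a peptide derived from the enzyme GPD1 and joined to a cell-penetrating sequence, and the study describes it as binding the mitochondrial protein C1QBP. Cells of 3 libraries received vehicle and cells of 3 libraries received 30 µM PDBAG1, both for 24 h, and mRNA libraries made from their total RNA were sequenced. All 6 libraries came from this 1 line, grown in Dulbecco's medium with fetal bovine serum, which itself carries lipids. The labels enter breast cancer tissue beside the line's name, give no composition of the vehicle and do not say that the libraries of a group came from separate cultures. The p values therefore measure the spread between these libraries, which may be technical.

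Fatty acid synthesis starts from cytosolic acetyl-CoA, which ACLY makes from citrate and ACSS2 from acetate. ACACA carboxylates acetyl-CoA to malonyl-CoA, FASN builds palmitate, ELOVL6 and ELOVL5 add carbons to long chains, SCD and FADS2 with FADS1 set double bonds, and ACSL3 couples free fatty acids to CoA. SREBP-1 and SREBP-2, encoded by SREBF1 and SREBF2, are held in the endoplasmic reticulum by the INSIG proteins through SCAP, move to the nucleus when membrane sterol is low, and activate sterol and fatty acid genes at sterol regulatory elements. The comparison asked whether these SREBP-linked genes rose with PDBAG1.

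Values are TPM, each gene's share of the transcripts of a library corrected for transcript length, so that levels can be set side by side between genes. Log2 fold changes are of TPM + 1, PDBAG1 over vehicle, from limma fitted to all 12582 genes, and a gene passed the test at a Benjamini-Hochberg adjusted p under 0.05. Of the 10 members, 6 rose, 0 fell and 4 did not pass. Over all genes tested, 21.7% were higher and 15.9% lower by the same rule. The members were chosen with earlier results of these data known, so the counts describe them and are no independent test. The members' median log2 fold change was 0.24, against 0.03 over all genes, and their values ran from -0.16 for ACACA to 0.85 for ACSS2. With the study's additional limit of a 1.5-fold change, 2 members passed, ACSS2 and SCD, where 2.86% of all genes tested were called higher. The 3 PDBAG1 libraries all lay above the 3 vehicle libraries for 6 members, against 27.2% of all genes, and all below them for 1 member, against 20.2%. The smallest two-sided p that exact permutation allows for 3 against 3 libraries is 0.1, and calls therefore rest on the model across all genes. The direction and call of each of the 6 risen members was the same in each of the 13 other settings tried. In bulk RNA, fewer cells with a transcript and less of it per cell cannot be told apart.

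**Figure D1:**
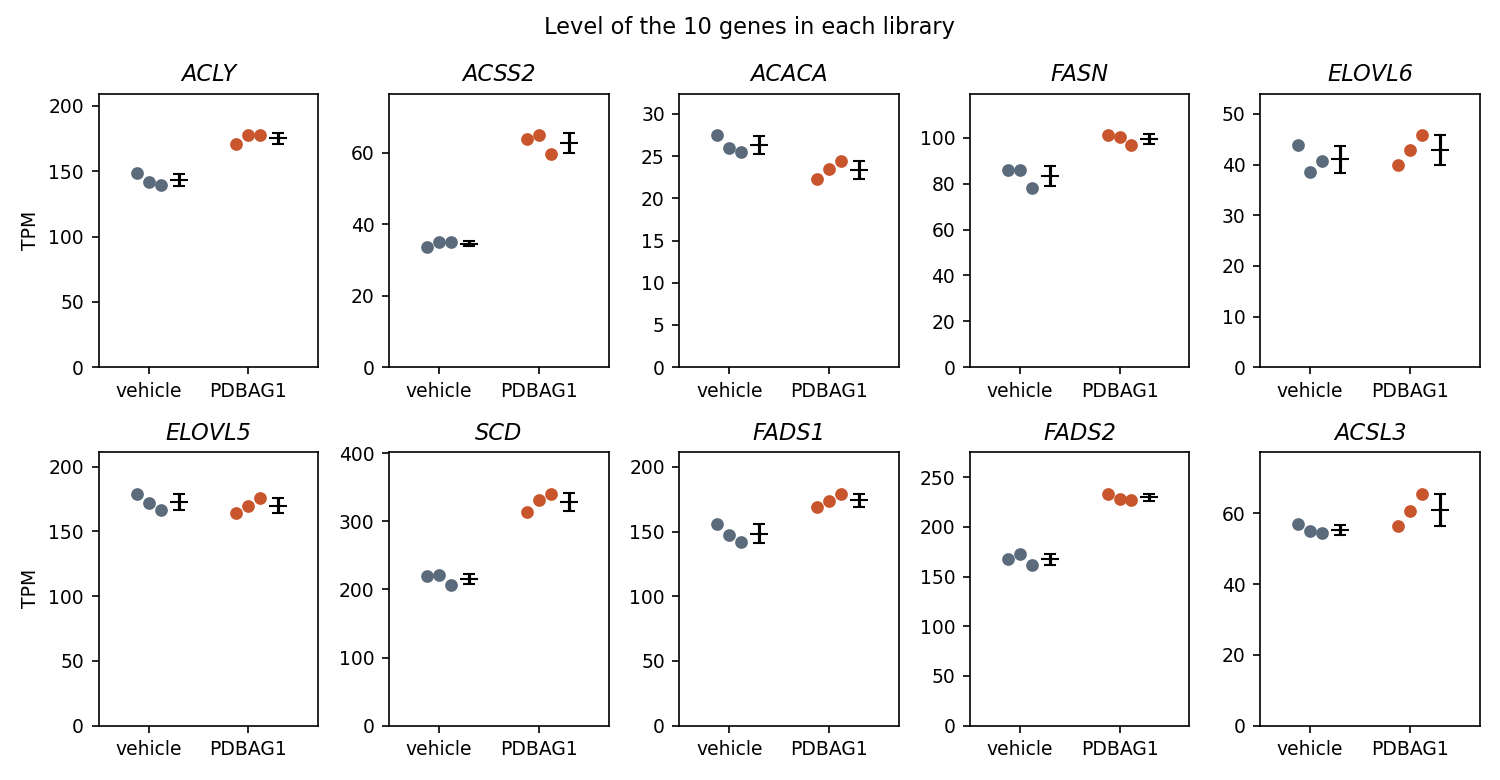
TPM of the 10 genes (y axis, from 0) in the 3 vehicle and the 3 PDBAG1 libraries (points in the order of the replicate numbers), with the mean and SD of each group in black. The groups are apart for ACLY, ACSS2, FASN, SCD, FADS1 and FADS2, which are higher with PDBAG1, and for ACACA, which is lower, and they overlap for ELOVL5, ELOVL6 and ACSL3.

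The genes that supply acetyl-CoA both rose, and ACSS2 rose more than any other member. ACSS2 (chromosome 20, 34872146 to 34927962, plus strand, GRCh38, GENCODE v44, as for all gene positions given here) stood at 33.6, 34.9 and 34.9 TPM with vehicle and at 63.9, 64.9 and 59.6 TPM with PDBAG1. The lowest treated library was well above the highest vehicle library. The mean went from 34.5 ± 0.733 to 62.8 ± 2.79 TPM (SD, n = 3 each), a 1.82-fold ratio of TPM and a log2 fold change of 0.85 (95% interval 0.73 to 0.96, limma adjusted p = 5.29e-08), which placed it at the 99.0th percentile of all genes tested. ACLY (chromosome 17, 41866917 to 41930542, minus strand) was at 149, 142 and 139 TPM with vehicle and at 171, 177 and 178 TPM with PDBAG1. Its groups did not overlap, and the log2 fold change was 0.29 (95% interval 0.20 to 0.38, limma adjusted p = 0.000125). ACLY was the more abundant of these sources in every library, but the share of ACSS2 in their summed TPM went from 19.4% ± 0.843 to 26.4% ± 1.10 (SD, n = 3 libraries each, groups apart, exact permutation p = 0.1, the smallest possible). Among the acetyl-CoA synthetase genes, ACSS2 made up 60.3% ± 1.90 of the summed TPM with vehicle and 71.9% ± 1.99 with PDBAG1. The mitochondrial enzyme ACSS1 was at 3.09 to 3.59 TPM with vehicle and 2.58 to 3.15 TPM with PDBAG1, and ACSS3 at 18.7 to 20.7 and 20.4 to 22.8 TPM, and neither passed the test (limma adjusted p = 0.302 and 0.120).

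Of the enzymes that commit and assemble the chain, FASN rose and ACACA did not pass. ACACA, the carboxylase of the committed step (chromosome 17, 37084992 to 37406836, minus strand), was at 27.5, 25.9 and 25.5 TPM with vehicle and at 22.3, 23.5 and 24.4 TPM with PDBAG1, the one member whose treated libraries all lay below the vehicle libraries. Its log2 fold change of -0.16 (95% interval -0.30 to -0.03) had a limma adjusted p of 0.0518 and did not pass. It passed as lower without PDBAG1 replicate 3 (-0.19), with median-of-ratios scaling (-0.20) and with quantile normalisation (-0.20). FASN, the fatty acid synthase (chromosome 17, 82078338 to 82098294, minus strand), was at 86.2, 85.8 and 78.2 TPM with vehicle and at 101, 100.35 and 96.9 TPM with PDBAG1. FASN rose by a log2 fold change of 0.25 (95% interval 0.15 to 0.36, limma adjusted p = 0.00124), with all treated libraries above the vehicle libraries. The TPM ratio of FASN to ACACA went from 3.17 ± 0.125 to 4.26 ± 0.286 (SD, n = 3 libraries each). ACACB, the carboxylase of the mitochondrial surface, was a minor transcript at 1.83 to 2.18 TPM with vehicle and 2.05 to 2.38 TPM with PDBAG1, so that ACACA held 92.8% ± 0.539 and 91.5% ± 0.705 of the summed carboxylase TPM.

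Of the elongases, neither member passed the test. ELOVL6, which extends palmitate (chromosome 4, 110045846 to 110199199, minus strand), was at 43.8, 38.5 and 40.7 TPM with vehicle and at 39.8, 42.8 and 45.8 TPM with PDBAG1, and the groups overlapped. The log2 fold change was 0.06 (95% interval -0.08 to 0.20, limma adjusted p = 0.490). ELOVL5, which extends polyunsaturated chains (chromosome 6, 53267398 to 53349179, minus strand), was at 179, 172 and 167 TPM with vehicle and at 164, 169.85 and 176 TPM with PDBAG1. Here too the groups overlapped, with a log2 fold change of -0.02 (95% interval -0.12 to 0.07, limma adjusted p = 0.721), and the sign turned to 0.0051 without vehicle replicate 1 and to 0.0026 without PDBAG1 replicate 1. The 95% intervals of both genes lie within a 1.5-fold change in either direction. The summed TPM of the elongase family was 410.25 ± 9.55 with vehicle and 408 ± 11.1 with PDBAG1, and the shares of ELOVL1 (45.5% ± 0.716 and 45.1% ± 0.972), ELOVL5 (42.1% ± 0.649 and 41.6% ± 0.507) and ELOVL6 (9.99% ± 0.470 and 10.5% ± 0.470) all overlapped. ELOVL3 (1.64 to 2.83 TPM) and ELOVL7 (6.71 to 9.30 TPM) were minor, and ELOVL2 (0.53 to 0.78 TPM) and ELOVL4 (0 to 0.03 TPM) were too low to be tested.

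The desaturases rose, SCD most. SCD, which sets the first double bond in stearate and palmitate (chromosome 10, 100347233 to 100364826, plus strand), was the most abundant member in every library, at 219, 221 and 207 TPM with vehicle and at 314, 331 and 341 TPM with PDBAG1. The groups lay far apart, at means of 216 ± 7.77 and 328 ± 13.4 TPM (SD, n = 3 each), a 1.52-fold ratio of TPM and a log2 fold change of 0.60 (95% interval 0.51 to 0.70, limma adjusted p = 1.75e-07). SCD lay just past the 1.5-fold limit, and under it at a log2 fold change of 0.57 without vehicle replicate 3, 0.58 without PDBAG1 replicate 3 and 0.57 with median-of-ratios scaling, with the adjusted p passing each time. Its paralogue SCD5 was at 11.8 to 12.9 TPM with vehicle and 13.8 to 14.4 TPM with PDBAG1 and did not pass (log2 fold change 0.17, limma adjusted p = 0.0678), and SCD held 94.6% ± 0.346 and 95.9% ± 0.159 of the pair. FADS2, the delta-6 desaturase (chromosome 11, 61792980 to 61867354, plus strand), was at 168, 173 and 162 TPM with vehicle and at 233, 229 and 227 TPM with PDBAG1. FADS2 rose 1.37-fold in TPM, with a log2 fold change of 0.45 (95% interval 0.37 to 0.54, limma adjusted p = 1.41e-06). FADS1, the delta-5 desaturase (chromosome 11, 61799627 to 61829318, minus strand), was at 156, 147 and 142 TPM with vehicle and at 169, 173 and 179 TPM with PDBAG1. FADS1 rose at a log2 fold change of 0.23 (95% interval 0.13 to 0.33, limma adjusted p = 0.00136), and the TPM ratio of FADS2 to FADS1 went from 1.13 ± 0.050 to 1.32 ± 0.0554 (SD, n = 3 libraries each, groups apart). These genes lie on opposite strands and their annotated spans share 801 bases in RefSeq (GRCh38.p14, chromosome 11, 61816203 to 61817003) and 29692 bases in GENCODE v44. In GENCODE v44 the shared stretch is the whole span of FADS1. Whether the counting used strand is not given in the sources used here, so reads of the shared stretch cannot be told apart. How far the rise of FADS1 and the ratio of FADS2 to FADS1 depend on such reads was not tested. FADS3, the third gene of the cluster, was at 88.3 to 96.5 TPM with vehicle and 89.3 to 98.1 TPM with PDBAG1 (log2 fold change 0.00, 95% interval -0.10 to 0.11), and its share of the family was 22.7% ± 1.01 with vehicle and 18.7% ± 0.739 with PDBAG1. SCD, FADS1 and FADS2 together went from 531 ± 18.7 to 732 ± 15.1 TPM (SD, n = 3 libraries each). Over the same libraries the ratio of SCD to FASN was 2.59 ± 0.0511 and 3.30 ± 0.206, and that of SCD to ELOVL6 was 5.27 ± 0.401 and 7.68 ± 0.226.

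ACSL3, an acyl-CoA synthetase of the endoplasmic reticulum and lipid droplets (chromosome 2, 222860942 to 222944639, plus strand), was at 57.0, 54.9 and 54.4 TPM with vehicle and at 56.5, 60.7 and 65.6 TPM with PDBAG1. Only PDBAG1 replicate 1 lay within the range of the vehicle libraries. The log2 fold change was 0.13 (95% interval 0.01 to 0.25, limma adjusted p = 0.0877), and without that library it was 0.18 and passed (limma adjusted p = 0.0172). The family member that rose most was ACSL5, a synthetase of mitochondria and endoplasmic reticulum, from between 113 and 116 TPM with vehicle to between 149 and 152 TPM with PDBAG1 (log2 fold change 0.40, limma adjusted p = 4.28e-06). ACSL5 held 42.8% ± 0.751 of the summed ACSL TPM with vehicle and 47.0% ± 1.37 with PDBAG1, and ACSL3 held 20.8% ± 0.205 and 18.9% ± 0.684. ACSL4, which prefers arachidonate, passed as higher with the log2 fold change at 0.20 (limma adjusted p = 0.0186), but did not pass without vehicle replicate 2 or 3 or without PDBAG1 replicate 2 or 3, where it was between 0.15 and 0.19. ACSL1, at 26.2 to 29.8 TPM over all libraries, did not pass (log2 fold change 0.09, limma adjusted p = 0.295).

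Set in order of mean level, the vehicle libraries ran from SCD through ELOVL5, FADS2, FADS1, ACLY, FASN, ACSL3, ELOVL6 and ACSS2 to ACACA. Within that order the libraries of ELOVL5 and FADS2 overlapped, as did those of FADS1 and ACLY. With PDBAG1 the order was SCD, FADS2, ACLY, FADS1, ELOVL5, FASN, ACSS2, ACSL3, ELOVL6 and ACACA, with overlaps between ACLY and FADS1, FADS1 and ELOVL5, and ACSS2 and ACSL3. The libraries of ACLY and ELOVL5 overlapped there as well. By these means ELOVL5 stood behind SCD alone with vehicle and behind 4 members with PDBAG1, while ACSS2 moved above ACSL3 and ELOVL6. The order did not hold in every library. ELOVL5 (171.94 TPM) lay below FADS2 (172.93 TPM) in vehicle replicate 2, and ACSS2 (59.61 TPM) below ACSL3 (65.58 TPM) in PDBAG1 replicate 3. The 10 members together took 1119, 1095 and 1049 TPM with vehicle and 1335, 1372 and 1393 TPM with PDBAG1, or 1088 ± 35.6 and 1367 ± 29.1 TPM on average. Within the groups, vehicle replicate 3 was the lowest of its group for 8 of the 10 members, PDBAG1 replicate 1 was the lowest for 7 and PDBAG1 replicate 3 the highest for 7. Over all genes tested, the median log2 difference was -0.072 for PDBAG1 replicate 1 minus replicate 3. It was 0.062 for vehicle replicate 1 minus replicate 3 and -0.0068 for vehicle replicate 2 minus replicate 3. The part of this ordering in the results was not tested beyond leaving out each library, median-of-ratios scaling and quantile normalisation.

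Promoter sequences were taken from RefSeq (GRCh38.p14), 250 bases before to 50 bases after a transcript start, for 9 of the 10 members (all but FASN) in 14 windows, as several members have more than 1 start. SCD and ACSS2 had the largest rises, and the window of SCD is shown with 1 of the 2 windows of ACSS2, the first by position. The other ACSS2 window is described below. Also shown are the window of ELOVL5, which did not pass, and that of SREBF2. Among the windows of the members and of SREBF1, SREBF2, INSIG1 and INSIG2, that of SREBF2 alone held the searched sterol regulatory element. Capitals mark the element TCACNCCAC, the CCAAT box bound by NF-Y and the E-box CACGTG, each searched on both strands, so that ATTGG is a CCAAT box on the other strand.
SCD, chr10:100346983-100347282, plus strand: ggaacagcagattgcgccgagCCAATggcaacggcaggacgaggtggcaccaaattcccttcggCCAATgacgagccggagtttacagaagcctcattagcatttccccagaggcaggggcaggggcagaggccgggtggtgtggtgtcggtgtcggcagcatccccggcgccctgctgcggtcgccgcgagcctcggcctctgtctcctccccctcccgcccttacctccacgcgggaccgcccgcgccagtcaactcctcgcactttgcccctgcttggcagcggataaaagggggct
ACSS2, chr20:34874739-34875038, plus strand: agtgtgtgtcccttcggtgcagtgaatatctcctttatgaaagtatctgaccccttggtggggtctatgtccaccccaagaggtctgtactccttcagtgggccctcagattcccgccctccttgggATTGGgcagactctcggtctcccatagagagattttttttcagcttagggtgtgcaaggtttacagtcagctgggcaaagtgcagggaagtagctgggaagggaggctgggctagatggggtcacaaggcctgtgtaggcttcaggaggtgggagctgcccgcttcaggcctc
ELOVL5, chr6:53348901-53349200, minus strand: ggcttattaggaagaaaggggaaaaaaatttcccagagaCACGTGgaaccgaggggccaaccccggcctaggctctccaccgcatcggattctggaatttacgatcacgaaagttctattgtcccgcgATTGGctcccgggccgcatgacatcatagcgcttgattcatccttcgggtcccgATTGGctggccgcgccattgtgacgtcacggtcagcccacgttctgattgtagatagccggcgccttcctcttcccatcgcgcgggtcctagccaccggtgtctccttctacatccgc
SREBF2, chr22:41832855-41833154, plus strand: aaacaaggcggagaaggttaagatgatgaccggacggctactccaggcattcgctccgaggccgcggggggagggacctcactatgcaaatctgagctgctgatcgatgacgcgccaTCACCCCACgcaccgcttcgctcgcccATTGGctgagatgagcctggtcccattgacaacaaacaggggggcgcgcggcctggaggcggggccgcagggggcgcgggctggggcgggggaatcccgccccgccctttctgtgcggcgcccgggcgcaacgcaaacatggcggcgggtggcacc

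SCD held a CCAAT box at -229 and at -186 from the start (first base of the match), ACSS2 held one at -123 in the window shown, ELOVL5 held them at -122 and -68 with an E-box at -211, and SREBF2 held the element TCACCCCAC at -133 with a CCAAT box at -106. The element TCACNCCAC was in none of the windows of the 9 members and in 1.13% of all 35116 windows of this length (1.12% of those of tested genes). A CCAAT box was in 7 of the 9 members, in 4 of the 5 risen members with an entry (ACLY, SCD, FADS2 and ACSS2, not FADS1) and in ACACA, ELOVL5 and ACSL3, which did not pass, against 34.6% of all windows and of those of tested genes. The GC box GGGCGG, bound by SP1, was in 8 of the 9 members and 45.0% of all windows, but 65.7% of the windows of tested genes, to which the members belong. The E-box was in 1 member, ELOVL5, and in 7.26% of all windows and 9.22% of those of tested genes, and the shorter ACGTG of hypoxia elements, which the E-box also holds, was in 4 members (ACACA, ELOVL5, ELOVL6 and ACSS2) and in 21.4% and 25.2%. The other ACSS2 window (chromosome 20, 34876362 to 34876661) held no CCAAT box, 3 GC boxes and the ACGTG counted for this gene. ACSS2 is thus counted with a CCAAT box through the window shown alone, and FADS2 too held one in only 1 of its windows. Which start was used in these cells was not tested. A member with several windows has more chances of a match than a single window. A match is a description of the letters in the window, and known elements vary from this spelling and lie outside this window as well.

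Among 22 genes that control lipogenesis, 21 were tested, 6 rose and 0 fell, with a median log2 fold change of 0.05. Of all genes tested, 21.7% were higher and 15.9% lower, with a median of 0.03. Of the SREBP genes, SREBF2 rose and SREBF1 did not. SREBF2, the factor best known for sterol genes, was at 46.0, 46.1 and 42.9 TPM with vehicle and at 64.9, 61.5 and 63.0 TPM with PDBAG1, and rose at a log2 fold change of 0.48 (95% interval 0.37 to 0.59, limma adjusted p = 8.71e-06). SREBF1, the factor best known for fatty acid genes, was at 50.1, 49.5 and 46.6 TPM with vehicle and at 42.6, 45.4 and 45.3 TPM with PDBAG1. All treated libraries were thus below the vehicle libraries, but the log2 fold change of -0.13 (95% interval -0.24 to -0.02) did not pass (limma adjusted p = 0.0676). It passed as lower with median-of-ratios scaling (-0.16) and with quantile normalisation (-0.15). SREBF1 made up 52.0% ± 0.195 of the summed TPM of both genes with vehicle and 41.3% ± 1.5 with PDBAG1, and the table does not separate the SREBP-1a and SREBP-1c transcripts. INSIG1, a sterol-regulated anchor of SCAP and itself an SREBP target, was at 149, 158 and 148 TPM with vehicle and at 297, 311 and 303 TPM with PDBAG1. INSIG1 rose 2.00-fold (log2 fold change 1.00, limma adjusted p = 7.47e-10). INSIG2, the second anchor and a known hypoxia-responsive gene, rose from between 18.3 and 20.9 TPM with vehicle to between 38.3 and 42.0 TPM with PDBAG1, with the log2 fold change at 1.00 (limma adjusted p = 8.12e-08). SCAP, the escort of SREBP, was at 29.6 to 33.1 TPM with vehicle and 28.6 to 29.3 TPM with PDBAG1 and did not pass (log2 fold change -0.11, limma adjusted p = 0.145), but passed as lower at -0.15 under both scalings. MBTPS2, the protease that cuts SREBP within the membrane, was named after its values were seen: at 8.50 to 10.6 TPM with PDBAG1 and 10.8 to 11.2 TPM with vehicle it did not pass (log2 fold change -0.19, limma adjusted p = 0.0881), and it passed as lower with median-of-ratios scaling (-0.22), with quantile normalisation (-0.28) and without PDBAG1 replicate 3 (-0.26). Both scalings thus made 3 genes of the list lower (SREBF1, SCAP and MBTPS2), where the values as deposited gave 0. TRIB3, a stress-induced pseudokinase that restrains lipid synthesis, rose at a log2 fold change of 0.42.

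**Figure D2:**
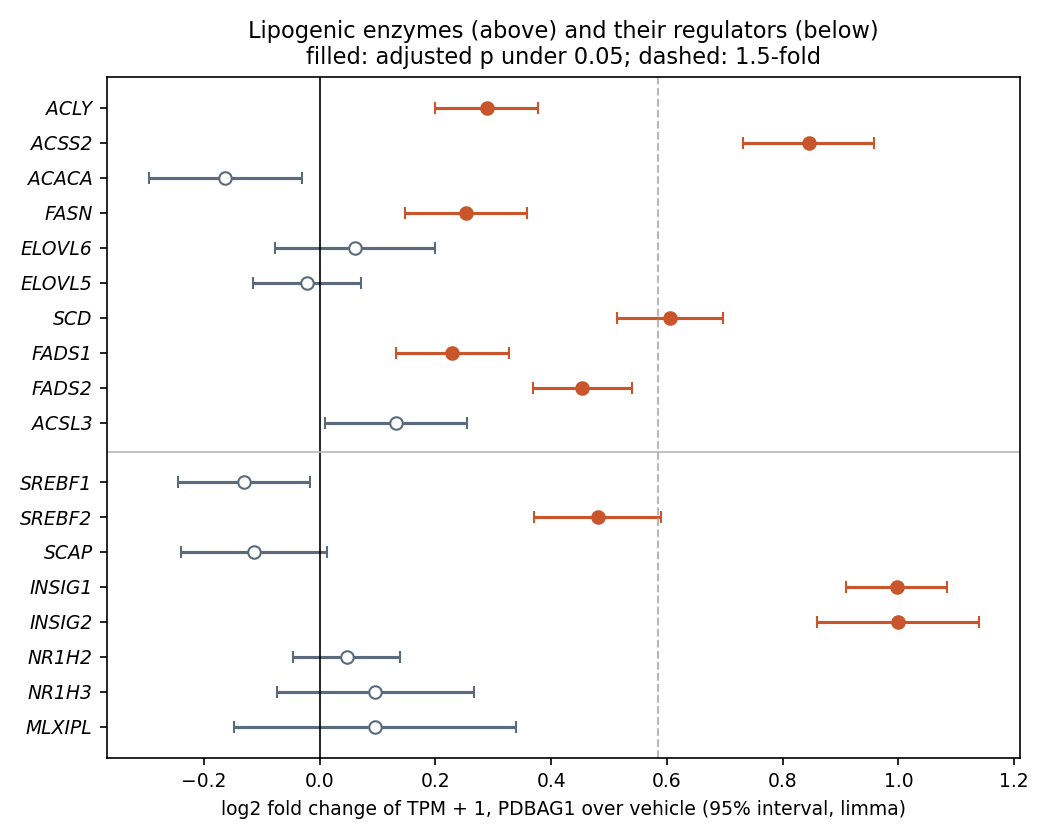
Log2 fold change of TPM + 1, PDBAG1 over vehicle (x axis), with its 95% interval from limma, for the 10 enzymes above the line and 8 of their regulators below it. Filled points passed the test, the dashed line marks 1.5-fold, and INSIG1 and INSIG2 lie at 1.00, ACSS2 at 0.85 and SCD at 0.60, while SREBF1 at -0.13 and ACACA at -0.16 lie to the left of 0 as open points.

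Of the nuclear receptors and glucose-responsive factors, RXRB and MLXIP rose, both named after their values were seen. RXRB, a partner of LXR, rose at 0.33 (limma adjusted p = 0.000256). MLXIP, the paralogue of ChREBP, rose at 0.28 (limma adjusted p = 0.0106), but did not pass without vehicle replicate 2 (0.24) or 3 (0.25). NR1H3, the LXR-alpha receptor that activates SREBF1, was at 15.7 to 17.7 TPM with vehicle and 16.8 to 20.2 TPM with PDBAG1 (log2 fold change 0.10, limma adjusted p = 0.363). MLXIPL, the glucose-responsive factor ChREBP, was barely expressed at 1.09 to 1.31 and 1.23 to 1.40 TPM (log2 fold change 0.10, limma adjusted p = 0.536). Of 5 LXR targets tested among the 6 listed (NR1H3 is in this list as well), 2 fell and 0 rose: MYLIP, a ligase that degrades the LDL receptor, at a log2 fold change of -0.89 from between 9.44 and 9.95 TPM with vehicle to between 4.53 and 5.11 TPM with PDBAG1 (limma adjusted p = 2.35e-06), and the cholesterol exporter ABCA1 at -0.54 from between 2.34 and 2.71 TPM with vehicle to between 1.27 and 1.52 TPM with PDBAG1 (limma adjusted p = 0.00153). The list's median was -0.06, and it was -0.23 with no expression filter, -0.13 under quantile normalisation and -0.092 with median-of-ratios scaling. Of all genes tested, 15.9% were lower and 21.7% higher. Of 11 genes of AMPK, the kinase that phosphorylates and inhibits ACACA, 10 were tested, 2 rose and 2 fell, with a median of 0.02: the catalytic subunit PRKAA2 (0.37) and the scaffold PRKAB2 (0.28) rose, and the nucleotide-binding PRKAG1 (-0.24) and PRKAG2 (-0.19) fell. These counts lie near the all-gene shares of 21.7% higher and 15.9% lower. PRKAG2 did not pass without vehicle replicate 1 or 3 or without PDBAG1 replicate 1 or 2, at -0.17 to -0.16, which left 1 gene of the list lower.

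The steps that feed and complete the pathway were mixed. Their counts are to be read beside 21.7% higher and 15.9% lower, and a median of 0.03, over all genes tested. Of 10 genes of citrate and NADPH supply, all tested, 3 rose and 1 fell, with a median of 0.07. IDH1, the cytosolic NADP isocitrate dehydrogenase, rose at a log2 fold change of 0.29 from between 71.1 and 78.1 TPM with vehicle to between 86.7 and 94.6 TPM with PDBAG1 (limma adjusted p = 0.00058). SLC25A1, the mitochondrial citrate carrier upstream of ACLY, rose at 0.27 from between 104 and 115 TPM with vehicle to between 127 and 137 TPM with PDBAG1 (limma adjusted p = 0.000717). ME1, the cytosolic malic enzyme, rose at 0.19 (limma adjusted p = 0.0186) but did not pass at 0.17 without vehicle replicate 2, 0.19 without vehicle replicate 3 or 0.17 without PDBAG1 replicate 2. The folate enzyme MTHFD1 fell by 0.24 on the log2 scale (limma adjusted p = 0.00105). The 22 paralogues and other elongation cycle genes gave 17 tested, 3 risen and 2 fallen, with a median of 0.06 (0.014 without vehicle replicate 3, 0.036 without PDBAG1 replicate 1, 0.035 without PDBAG1 replicate 2 and 0.010 under quantile normalisation). Besides ACSL5 and ACSL4, the ketoreductase HSD17B12, named after its value was seen, rose at 0.14, and the dehydratases HACD1 (-0.19) and HACD3 (-0.17) fell. HACD1 did not pass without vehicle replicate 3 (-0.12), PDBAG1 replicate 2 (-0.18) or PDBAG1 replicate 3 (-0.17), and HACD3 did not without vehicle replicate 1 (-0.13). HSD17B12 did not pass either, at 0.12 to 0.14, without any 1 of the 4 libraries whose removal lost ACSL4, which left ACSL5 as the 1 risen gene of the list.

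The separate fatty acid synthesis pathway of mitochondria, which makes the precursor of lipoate, had 7 genes, all tested, of which 1 rose and 2 fell, with a median of 0.01. The shares over all genes tested were 21.7% higher and 15.9% lower, with a median of 0.03. NDUFAB1, the acyl carrier protein and also a subunit of respiratory complex I, fell by 0.27 on the log2 scale from between 168 and 187 TPM with vehicle to between 144 and 147 TPM with PDBAG1 (limma adjusted p = 0.000489). HSD17B8, its ketoreductase, fell by 0.26 from between 18.3 and 19.4 TPM with vehicle to between 15.4 and 15.7 TPM with PDBAG1 (limma adjusted p = 0.00492). ACSF3, the malonyl-CoA synthetase, passed as higher at 0.19 (limma adjusted p = 0.0441) and failed to pass when any 1 of the 6 libraries was left out, at 0.16 to 0.22.

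The sterol branch, which shares SREBP with the members, had a larger share of risen genes and a higher median. Both lists were chosen with earlier results of these data known, so this comparison is a description. Of 24 genes of sterol synthesis and uptake, all tested, 21 rose and 1 fell, 8 of them rising at least 1.5-fold, with a median of 0.54 against 0.24 for the members. With a library left out, 19 to 20 rose and 1 fell. Among all genes tested, 21.7% were higher and 15.9% lower, and 2.86% were higher by at least 1.5-fold. Among the largest rises were those of HMGCS1 (1.38), the sterol demethylase MSMO1 (0.93) and HSD17B7 (0.81). The fallen gene was TMEM97, chosen after its value was seen, at -0.22. Of 15 genes of glycerolipid assembly and fatty acid uptake, 13 were tested, 8 rose and 1 fell, with a median of 0.27. With a library left out, 6 to 8 of these rose and the median was 0.22 to 0.33. VLDLR, a lipoprotein receptor and known hypoxia-responsive gene, rose at 1.11 from between 3.76 and 3.91 TPM with vehicle to between 9.31 and 9.40 TPM with PDBAG1 (limma adjusted p = 2.50e-07). The phosphatidate phosphatase LPIN1 rose at 0.78 from between 37.5 and 41.5 TPM with vehicle to between 65.7 and 71.0 TPM with PDBAG1 (limma adjusted p = 1.58e-07), its paralogue LPIN3 at 0.54 and the fatty acid transporter SLC27A3 at 0.48. The fallen gene was FABP5, a fatty acid binding protein, by 0.37 on the log2 scale from between 311 and 313 TPM with vehicle to between 238 and 245 TPM with PDBAG1. FABP5 was chosen after its value was seen.

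Genes with at least 1 TPM numbered 12392 to 12495 with vehicle and 12563 to 12611 with PDBAG1, so the groups were apart in this count. Over all 6 libraries, 8.03% to 8.75% of the total came from the 10 most abundant genes. Depth is unknown because TPM keeps none. All 7 markers of MDA-MB-231 were expressed, and they moved both ways: VIM, CD44 and KRT8 rose and KRT18 (-0.21), CAV1 (-0.30) and AXL (-0.26) fell. Their summed TPM was 6585 to 6789 with vehicle and 8309 to 8384 with PDBAG1, most of the difference being VIM, at a mean of 4270 and 5877 TPM. Luminal and receptor markers summed to 31.2 to 32.9 and 29.8 to 34.1 TPM, mostly ERBB2 at 23.6 to 25.4 TPM, with PGR at 0 to 0.06 TPM. Adipocyte markers summed to 10.98 to 14.9 and 10.6 to 11.7 TPM, nearly all of it CIDEC, with ADIPOQ at 0.32 to 0.69 and PLIN1 at 0.07 to 0.25 TPM. Leukocyte markers summed to 9.28 to 11.5 and 9.47 to 9.99 TPM, mostly CD14. Fibroblast markers summed to 4.01 to 4.15 and 4.45 to 5.06 TPM, nearly all of it COL1A1. Endothelial markers summed to 4.81 to 5.40 and 9.20 to 10.5 TPM. PECAM1, the 1 endothelial marker tested, rose (3.78 to 4.08 TPM with vehicle, 7.87 to 9.15 TPM with PDBAG1). CDH5, VWF, KDR and TEK were each under 1 TPM in every library and were too low to be tested. Of these, CDH5 was at 0.25 to 0.39 TPM with vehicle and 0.41 to 0.46 TPM with PDBAG1.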

How the data were processed

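The submitters' processing notes name HISAT2 2.0.4, Bowtie2 2.2.5, RSEM 1.2.12 and GRCh38.p12, while the methods name HISAT2 with GRCh38.p13, BGISEQ-500 sequencing and FPKM. The values the authors deposited, and all that were used here, are TPM per gene, given to 2 decimals with about the same total in each of the 6 libraries. TPM keeps no depth, so no counting error could be given, and the precision rests on 3 libraries per group. The annotation release and the strand setting are not given in the sources used here. Samples were grouped by the treatment in their labels.

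Genes with at least 1 TPM in 3 or more libraries were tested on log2(TPM + 1) with limma 3.58.1 in R 4.3.3 (linear models, then eBayes with its variance trend), adjusted by Benjamini-Hochberg over all 12582 genes, with the study's limits of 1.5-fold and 0.05. Adding 1 understates fold changes of low genes. The fit was tested on simulated data that had the vehicle spread in both groups and planted changes larger than that of any member. That test therefore does not cover changes of the size seen in the members. Shares and ratios were compared by an exact two-sided permutation test (scipy 1.17.1). Gene positions are from GENCODE v44. Named genes were all members, up to 4 genes of each other list with the largest absolute log2 fold change among those that passed, the paralogues of members, and SREBF1, SREBF2, INSIG1, SCAP, NR1H3 and MLXIPL. Genes named outside this rule are marked in the text. The members and lists were chosen with earlier results of these data known. Of the markers, CIDEA, CD3E and DCN were among those not analysed here, and some genes that the rule or the lists name are not reported here. The alternatives were a pseudocount of 0.1, other expression filters, median-of-ratios scaling, quantile normalisation, no variance trend, the replicate number as a block, other fold limits and each library left out.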

Additional observations from a re-analysis of the deposited data

How the results depend on the processing

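The count of risen members was 6 under each alternative but 1, and 7 without PDBAG1 replicate 1, where ACSL3 passed. The count of fallen members was 0, and 1 (ACACA) under median-of-ratios scaling, under quantile normalisation and in 1 of the settings that leave out a library (range 0 to 1, without PDBAG1 replicate 3). Over all alternatives the adjusted p of ACACA from limma ran from 0.00427 to 0.143. Members past 1.5-fold numbered 2, and 1 under median-of-ratios scaling, 0 at a fold limit of 2 and 1 to 2 with a library left out, 1 without vehicle replicate 3 or PDBAG1 replicate 3. The members' median was 0.21 under median-of-ratios scaling and 0.20 to 0.27 with a library left out. Over all genes, 420 were called (360 higher, 60 lower), 80 past 2-fold (73 and 7), 4736 with no fold limit (2736 and 2000), 630 at a pseudocount of 0.1 (530 and 100) and 381 under quantile normalisation (287 and 94). Signs changed for genes that did not pass: ELOVL5 ran from -0.047 to 0.0051, FADS3 from -0.032 to 0.035 and ELOVL3 from -0.069 to 0.20 with a library left out, FADS3 was -0.029 under median-of-ratios scaling, and ACACB was -0.036 and ELOVL3 -0.0013 under quantile normalisation. The median of the mitochondrial list was -0.020 under median-of-ratios scaling, -0.058 under quantile normalisation and -0.028 to 0.034 with a library left out (lowest without vehicle replicate 2, highest without vehicle replicate 3), and that of the AMPK list was -0.014 and -0.011 under these scalings and 0.0031 to 0.047 with a library left out (lowest without vehicle replicate 2, highest without PDBAG1 replicate 1). With median-of-ratios scaling the median was 0.032 for the citrate and NADPH list and 0.013 for the control list, also 0.013 under quantile normalisation, and that of the glycerolipid list was 0.17 under quantile normalisation and 0.13 with no expression filter. Apart from what follows from a limit or a scaling by its construction, the cause was not tested.

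Same-numbered libraries of the 2 groups did not deviate together (correlations of -0.21, 0.01 and -0.08, against -0.14 to 0.21 for differently numbered libraries). These values show no shared deviation, and they do not settle whether the numbers pair the cultures, which the labels do not say. With the replicate block 427 genes were called over all genes, among them all 420 of the fit without it, and the members gave 6 risen, 0 fallen, 2 past 1.5-fold and a median of 0.24. ACSF3 and ME1 did not pass with the block (adjusted p = 0.119 and 0.0589).

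With 3 libraries per group and unknown depth, small changes such as those of ACACA, ACSL3 and SREBF1 could not be settled, and the intervals given are those of the spread between libraries of 1 cell line at 1 dose and 1 time.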
